A study of Mus musculus with 4 samples.

Results

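The tripartite motif (Trim) genes of mouse ID8 ovarian cancer cells were described here, taken as every gene in the deposited table whose symbol is Trim followed by a number. The rule gave 66 of the 22063 genes listed, with Trim25 and Trim33 not described here. ID8 is a line derived from mouse ovarian surface epithelium, and the libraries were made from poly(A) RNA of cells carrying a control shRNA (shCtrl, labelled WT, 2 libraries) or an shRNA against USP9X (shUSP9X, labelled as a USP9X knockdown, 2 libraries). The shRNAs were delivered by lentivirus from a puromycin-selectable vector that both groups carry, and neither the hairpin used for sequencing nor the oxygen or TGF-β condition of the cells is stated in the sources used here. The knockdown libraries are described as shUSP9X-21 and shUSP9X-22, and whether these suffixes name 1 hairpin or 2 is not explained. Library totals were 17232006 and 15611363 estimated counts for shCtrl and 19978889 and 17021261 for shUSP9X, and 3 counts, which is 0.152 to 0.190 CPM (counts scaled to a common library size), served as the detection floor of a library. Nothing in the labels says that the duplicates came from separate cultures, so the p-values then measure only the spread between these libraries, which may be technical. All values are from bulk RNA, in which fewer cells of a type and less RNA per cell cannot be told apart.

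TRIM proteins share an N-terminal order of a RING finger, B-box zinc fingers and a coiled coil, and most of them work as E3 ubiquitin ligases, the enzymes that place ubiquitin on a chosen substrate. The C-terminal part, most often a SPRY domain, picks the substrate and divides the family into classes. Many SPRY members are induced by interferon and act in antiviral and innate immune signalling, whereas Trim28 is a nuclear corepressor that silences transposable elements. USP9X is a deubiquitinase, an enzyme of the opposite reaction that removes ubiquitin from proteins.

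The knockdown was visible in both libraries that carry its label. Usp9x (ENSMUSG00000031010) stood at 298 and 282 CPM in shCtrl and at 19.7 and 20.5 CPM in shUSP9X. The shUSP9X libraries were thus far below both controls, with a log2 fold change of -3.85 (SE 0.06, edgeR quasi-likelihood test, adjusted p = 4.66e-26). Of 10 epithelial and mesothelial markers, the keratin gene Krt19 was the most abundant at 703, 711, 786 and 751 CPM, and Krt8, Krt18, Wt1, Msln and Upk3b were at 163 CPM or more in each library. Krt7, Pax8 and Epcam were near the floor. Of the 7 tested, Krt8, Krt18 and Krt19 were called higher in shUSP9X and Wt1 and Msln lower, but with an offset for GC content and length Krt19 turned lower (-0.18) and 2 were higher and 4 lower. Of all genes 33.8% were higher and 33.6% lower, or 36.0% and 27.8% with the offset.

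Many interferon-inducible genes carry in their promoters a short element read by the interferon-activated factors of the STAT and IRF families. Its core was searched as GAAANNGAAA (N is any base) on both strands, so that TTTCNNTTTC counted as a match on the strand of the gene, in RefSeq promoter windows of 300 bases (GRCm38.p6, 250 before to 50 after the start site). The windows below are shown because these genes include the family's largest rises as well as neighbours that did not rise, and the capitals mark the match.
Trim30a: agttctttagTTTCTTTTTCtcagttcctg
Trim30d: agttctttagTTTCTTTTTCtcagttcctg
Trim34a: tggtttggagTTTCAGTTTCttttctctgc
Trim21: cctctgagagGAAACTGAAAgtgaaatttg
Trim26: ccgcttccgaTTTCACTTTCcttttctcgg
Trim5: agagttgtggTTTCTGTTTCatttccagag
Trim12a: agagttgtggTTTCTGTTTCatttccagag
Trim12c: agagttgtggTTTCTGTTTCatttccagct

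Each sequence is written 5′ to 3′ on the strand of its gene. The windows lie at chr7:104465210-104465239 for Trim30a, chr7:104507871-104507900 for Trim30d, chr7:102565450-102565479 for Trim21, chr7:104288136-104288165 for Trim5, chr7:104315466-104315495 for Trim12a and chr7:104353359-104353388 for Trim12c, all on the minus strand. Those of Trim34a, at chr7:104244457-104244486, and Trim26, at chr17:36836976-36837005, are on the plus strand. The printed stretches of Trim30a and Trim30d were identical base for base, as were those of Trim5 and Trim12a. In Trim21 and in Trim26 the match overlapped a second one on the same strand, and Trim30a had a second match in the window of another start site, at chr7:104446104-104446133. Of all genes with a promoter window, 3.99% held the motif, against 9 of the 52 family members that could be matched (17.3%), the ninth being Trim2. Of the interferon-inducible Trim genes, 7 of the 11 that were matched held it. A match describes letters in a window and is not evidence that a factor binds there.

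Of the 66 members, 35 had enough counts to be tested for a difference between shUSP9X and shCtrl. At an adjusted p under 0.05, 11 were higher in shUSP9X and 12 were lower, and 12 did not pass. Those 23 called members were 65.7% of the tested ones, beside 67.3% of all 11448 genes tested, with 33.8% of all genes higher and 33.6% lower. The share of the family that passed thus lay near that of all genes. The study's own criteria were a fold change over 1.5 and an unadjusted p under 0.05. With them 7 members were higher (20% of those tested, against 10.8% of all genes) and 6 were lower (17.1%, against 18.7%). Trim30d, among the 7 and among the 11, passed the filter on low counts only through shUSP9X, in which it was high. The median log2 fold change was -0.17 for the tested members and -0.0005 for all genes, and the median size of the change was 0.48 and 0.38. The library values of the groups did not overlap for 15 members that were higher and 17 that were lower, where 41.2% and 41.0% of all genes did the same (82.3% together), and they overlapped for Trim16, Trim45 and Trim46.

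**Figure D1:**
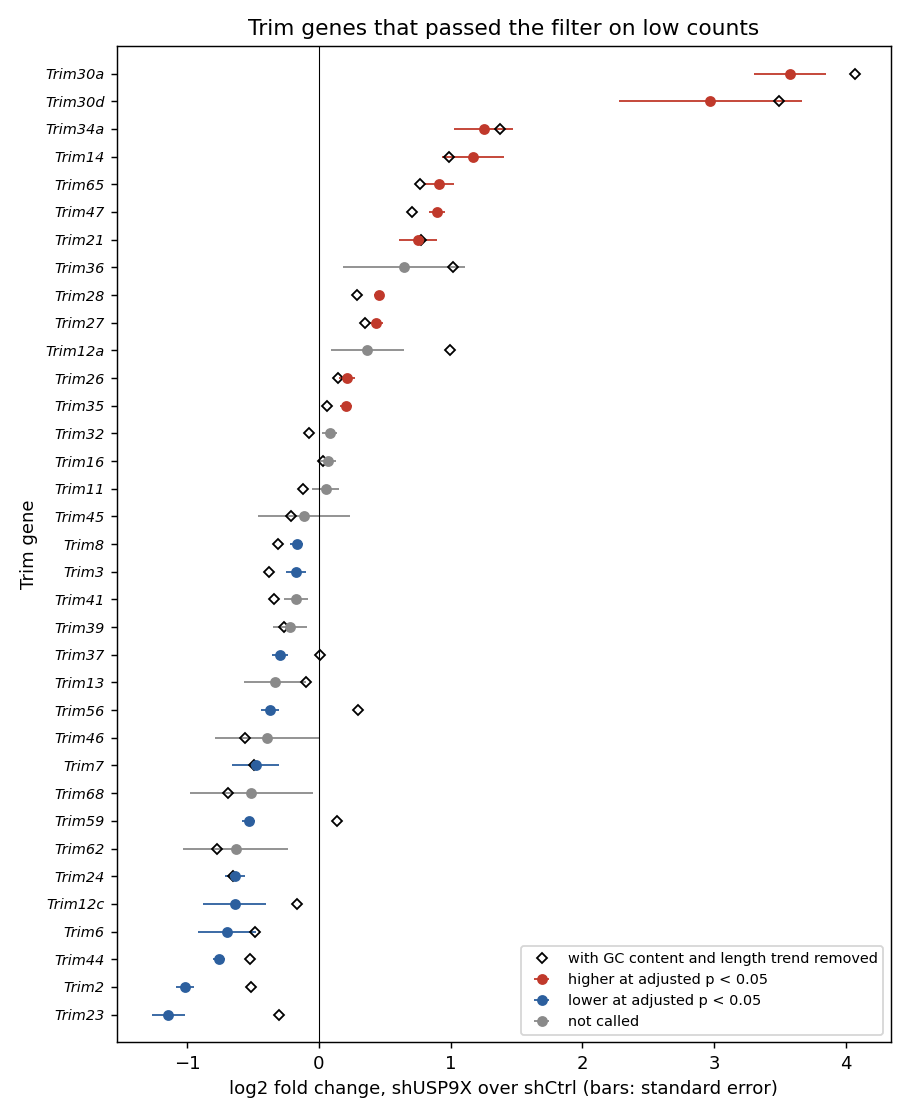
Log2 fold change of shUSP9X over shCtrl (horizontal axis, bars are standard errors) for the 35 tested Trim genes (vertical axis), coloured by whether the adjusted p was under 0.05. Trim30a and Trim30d stand apart at the high end, at 3.58 and 2.97, and Trim23 and Trim2 lie at the low end, at -1.14 and -1.02.

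The highest rises were in SPRY genes of the Trim30 group on chromosome 7. Trim30a (ENSMUSG00000030921, GRCm38 chromosome 7, 104409025 to 104465193), an interferon-induced protein known to restrain Toll-like receptor signalling, was at 14 and 10 counts in the controls and 180 and 139.85 after knockdown. Both shUSP9X libraries were far above both controls. In CPM this was 0.807 and 0.632 against 9.11 and 8.31, an 11.9-fold rise (log2 fold change 3.58, SE 0.27, edgeR adjusted p = 8.36e-12). The size of that ratio rests on a low control level, and with 1 FPKM (reads scaled for transcript length and library size) added to each value the log2 difference was 1.46. Its neighbour Trim30d (ENSMUSG00000057596, 104470014 to 104507849), a close relative whose transcript shares sequence with Trim30a, Trim30b and Trim30c, was at 5 and 0 counts in the controls and 25 and 20.15 after knockdown. It passed the filter on low counts only through shUSP9X, the group in which it was high, so that its log2 fold change of 2.97 (SE 0.69) is given as a description, although it stands among the 11 members called higher. The shCtrl level of Trim30d came from 1 library, and without shCtrl replicate 1 the estimate was 7.43.

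Trim34a, Trim14 and Trim21 also rose. Trim34a (ENSMUSG00000056144, chromosome 7, 104244457 to 104262234) went from 52 and 42 counts to 120 and 126, with a log2 fold change of 1.25 (SE 0.22, edgeR adjusted p = 2.03e-05). Both shUSP9X values lay well above both controls. Of its transcript, 59.7% in 50-base stretches also occurs elsewhere in the annotated transcriptome, mainly in Trim34b, which had no count in any library, and 609 exonic bases overlap an antisense gene. Trim14 (ENSMUSG00000039853, chromosome 4, 46493781 to 46536141), which lacks the RING finger and serves as an adaptor of the antiviral protein MAVS, had 49 and 35 counts against 114 and 95. Both shUSP9X libraries were again above both controls (log2 fold change 1.17, SE 0.24, edgeR adjusted p = 1.01e-04). The exons of Trim14 overlap those of Nans on the opposite strand over 1356 bases, and since the kit does not mark strand, reads of the overlap could belong to either gene.

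Trim21 (ENSMUSG00000030966, chromosome 7, 102557921 to 102565486) is the cytosolic receptor for antibody-coated virus. It had 8.02 and 8.22 CPM in shCtrl and 14.6 and 12.7 in shUSP9X, without overlap (log2 fold change 0.75, SE 0.14, edgeR adjusted p = 4.39e-05). Trim26 rose by less, from 66.8 and 66.3 to 80.0 and 74.4 CPM (log2 fold change 0.22, edgeR adjusted p = 0.00238). Its call was lost without shUSP9X replicate 1, where the adjusted p was 0.0853.

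Trim12c, Trim12a and Trim56, also on the list of interferon-inducible genes, were lower or did not pass. Trim12c (ENSMUSG00000057143), a rodent relative of primate TRIM5, fell from 4.96 and 4.68 to 3.49 and 2.67 CPM (log2 fold change -0.64, SE 0.24, edgeR adjusted p = 0.0211). The call depended on single libraries, with adjusted p values of 0.0847 without shCtrl replicate 1 and 0.194 without shUSP9X replicate 2. Of the transcript of Trim12c, 33.7% in 50-base stretches also occurs in other annotated genes, Trim5 foremost, and 100 exonic bases overlap Gm27995 on the same strand. Trim12a (ENSMUSG00000066258), a relative with 10.5% of such stretches shared, was at 52 and 36 counts in the controls and 65 and 60 after knockdown. The log2 difference of 0.37 for Trim12a did not pass (edgeR adjusted p = 0.244). Trim56, a ligase of the cytosolic DNA sensing pathway, fell from 56.8 and 55.9 to 43.3 and 44.1 CPM (log2 fold change -0.37, edgeR adjusted p = 3.11e-05). Its FPKM overlapped between the groups, with means of 9.21 in shCtrl and 8.80 in shUSP9X, and with an offset for GC content and length its direction turned to a rise (0.30, edgeR adjusted p = 4.74e-04). Trim30b, Trim30c and Trim34b were at or under the floor in every library. In all, 9 of the 12 interferon-inducible Trim genes were tested, of which 6 were higher (Trim30d among them), 2 lower and 1 not called, with a median log2 fold change of 0.75, beside 33.8% of all genes higher and 33.6% lower. With an offset for the GC content and length of each transcript, 8 were higher, none was lower and Trim12c was not called. In that fit 36.0% of all genes were higher and 27.8% lower.

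The genes around Trim30a form a run of 10 Trim genes on chromosome 7 (104218793 to 104507849), each within 50000 bases of the next. In chromosomal order they are Trim6, Trim34a, Trim5, Trim12a, Trim34b, Trim12c, Trim30b, Trim30c, Trim30a and Trim30d. Trim30a, Trim30d and Trim34a were higher in shUSP9X, Trim6 and Trim12c were lower, Trim12a was not called, and the rest were not tested. Trim6 (ENSMUSG00000072244), which makes free ubiquitin chains that activate an interferon-response kinase, fell from 6.57 and 6.01 to 3.14 and 4.69 CPM. The groups did not overlap (log2 fold change -0.70, SE 0.22, edgeR adjusted p = 0.00685), but the adjusted p was 0.173 without shUSP9X replicate 1. Trim5 had between 4.14 and 6 counts in each library, close to the floor. The falls of Trim6 and Trim12c were not called with DESeq2 (adjusted p of 0.094 and 0.166), although their log2 fold changes there were about as large (-0.68 and -0.63). With an offset for GC content and length they were smaller, at -0.49 and -0.17, and again not called (edgeR adjusted p of 0.0554 and 0.552). With that offset no gene of the run was called lower, where 27.8% of all genes were.

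**Figure D2:**
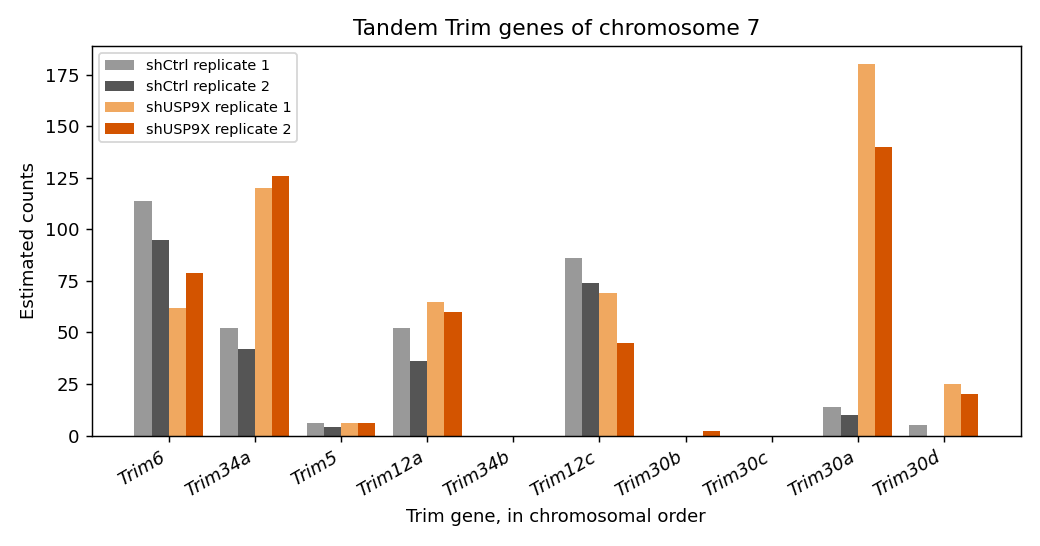
Estimated counts (vertical axis, linear from 0) of the tandem Trim genes of chromosome 7 in chromosomal order (horizontal axis). Each gene has 1 bar per library, in greys for shCtrl and oranges for shUSP9X. Trim30a moves from 14 and 10 counts in shCtrl to 180 and 139.85 in shUSP9X and Trim34a from 52 and 42 to 120 and 126, while Trim6 and Trim12c move down.

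Against the promoter windows shown above, the motif was present in 5 of the 8 matched members that were higher (Trim21, Trim26, Trim30a, Trim34a and Trim30d, the last having passed the filter only through shUSP9X), in 2 of the 10 that were lower (Trim2 and Trim12c) and in 1 of the 9 that were not called (Trim12a). Trim12a and Trim12c hold the same match as one another, and Trim12a was called higher only with the offset for GC content and length (0.99). Among interferon response genes outside the family, 7 of 21 matched genes held it.

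Interferon response genes beyond the family moved with the Trim30 group. Of 27 tested, 25 were higher in shUSP9X and 1 was lower, with a median log2 fold change of 1.87, where 33.8% of all genes tested were higher. Their summed level was 496.7 and 492.1 CPM in shCtrl and 1691 and 1728 in shUSP9X. Oas2, an RNA-sensing synthetase, had the largest rise (log2 fold change 4.23), and Irf7, a transcription factor that amplifies interferon production, went from 10.7 and 9.55 to 171 and 167 CPM (4.06). Ifit2 was the 1 that was lower (-0.63, edgeR adjusted p = 4.12e-05), a call lost with an offset for GC content and length (-0.23, adjusted p = 0.0885), in which Irf1 was the 1 called lower (-0.16).

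Some markers of immune cells were found at low counts in shUSP9X. Of 20 such genes, 2 were above the floor in both shCtrl libraries and 9 in both shUSP9X libraries, and 6 of these passed it in shUSP9X only. Since most of them could pass the filter on low counts only through the group in which they were high, their counts are given without a test. Itgam, the integrin chain of macrophages and neutrophils, had no count in shCtrl and 72 and 75 counts in shUSP9X. The macrophage gene Adgre1 had none and 58 and 59 counts, and Ptprc, the pan-leukocyte gene, none and 29 and 18. Not every marker moved this way, and 9 of the 20 were at or under the floor in every library. Cd68 had the lowest fold change of the 8 with enough counts for a fit. Calls among these 8 are not counted, since the filter favoured genes that were high in shUSP9X. The summed level of the list was 10.38 and 10.18 CPM in shCtrl and 29.95 and 29.8 in shUSP9X, with Cd14 the most abundant in shUSP9X at 10.3 and 9.85 CPM. Nkg7, Ms4a1, Cd3e, C1qa and C1qb were at 0 in every library, and the macrophage gene Lyz2 had 2 counts in 1 shUSP9X library and none elsewhere. The part of these markers in the rises of the Trim genes was not tested. Of 7 fibroblast and endothelial markers 4 were tested and 3 were lower (Dcn, Tek and Pdgfra), where 33.6% of all genes were lower, with a summed level of 194.5 and 191.8 against 131.3 and 129.9 CPM, and Cdh5, Kdr and Lum at 0 throughout. Pecam1 had the highest fold change of the 4 and was the 1 not called. With the offset Dcn turned to a rise (0.44), Tek and Pdgfra stayed lower and the median of the 4 went from -0.63 to -0.37.

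Outside the interferon-inducible list, 12 SPRY genes were tested, of which 4 were higher in shUSP9X, 2 were lower and 6 were not called, a share of higher genes near the 33.8% of all genes. Trim47 (ENSMUSG00000020773, chromosome 11, 116105752 to 116127210), a ubiquitin ligase, had 50.6 and 57.0 CPM in shCtrl and 99.9 in each shUSP9X library. The groups were far apart relative to their spread (log2 fold change 0.90, SE 0.06, edgeR adjusted p = 9.08e-13). Trim65 (ENSMUSG00000054517, 116121846 to 116131128), which ubiquitinates the RNA sensor MDA5, lies beside it and went from 11.6 and 12.4 to 21.7 and 23.6 CPM (log2 fold change 0.91, SE 0.11, edgeR adjusted p = 1.03e-07). Trim47 and Trim65 overlap over 225 exonic bases on the same strand, so that some reads can be assigned to either.

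The rises of Trim27 and Trim35 were smaller than a 1.5-fold change. Trim27 (ENSMUSG00000021326), a ligase of endosomal recycling, went from 71.7 and 71.6 to 98.0 and 95.6 CPM (log2 fold change 0.43, SE 0.05, edgeR adjusted p = 9.1e-08). Trim35 (ENSMUSG00000022043) went from 125 and 130 to 145 and 149 CPM (0.21, SE 0.05, edgeR adjusted p = 4.19e-04). The call of Trim35 was lost with the GC content and length offset (0.06, edgeR adjusted p = 0.233). Neither pair of groups overlapped. In the SPRY class as a whole, 19 of 36 genes were tested, of which 9 were higher, 3 were lower and 7 were not called, with a median log2 fold change of 0.21, where 33.8% of all genes were higher and 33.6% lower. Of those 9, 5 belong to the interferon-inducible list, among them Trim30d, which passed the filter only through shUSP9X. With the GC content and length offset 9 were higher and 2 lower, where 36.0% and 27.8% of all genes were. Of these 2, 1 was lower in both fits, and the median of the class was 0.06. The genes of this class that were lower were Trim6, Trim7 and Trim12c, and the call of Trim7 (-0.48, edgeR adjusted p = 0.0199) was lost when shCtrl replicate 2, shUSP9X replicate 1 or shUSP9X replicate 2 was left out, with adjusted p values of 0.139, 0.0882 and 0.0607.

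The nuclear cofactors with a PHD finger and a bromodomain, domains that read histone marks, split. Trim28 (ENSMUSG00000005566, chromosome 7, 12999114 to 13031035), the corepressor recruited to DNA by KRAB zinc finger proteins, had 328 and 342 CPM in shCtrl and 457 and 462 in shUSP9X. Each shUSP9X library lay above both controls, and the rise was 1.37-fold (log2 fold change 0.46, SE 0.04, edgeR adjusted p = 2.43e-11). Trim24 (ENSMUSG00000029833, chromosome 6, 37870811 to 37966296), a coregulator of nuclear receptors, fell from 50.7 and 55.7 to 35.0 and 33.5 CPM. The groups did not overlap (log2 fold change -0.63, SE 0.08, edgeR adjusted p = 4.11e-08). Trim66, of the same class, was at or under the floor in every library.

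Partners of Trim28 and subunits of the HUSH complex, which silences transposable elements through the same histone mark, were counted beside it. Of 16 tested, 2 were higher (Atf7ip and Chd4, both at a log2 fold change of 0.14), 11 were lower and 3 were not called, with a median of -0.34 and 33.6% of all genes lower. This count depended on GC content and length. With an offset for them 5 were higher and 8 lower, where 36.0% and 27.8% of all genes were, and the median was -0.12. In that fit Cbx5 and Cbx3 turned from lower to higher (0.32 and 0.22) and Hdac2 and Yy1 had no call. In both fits 7 were lower. Tasor, the scaffold of HUSH, fell from 28.4 and 25.2 to 4.05 and 4.45 CPM (log2 fold change -2.66, edgeR adjusted p = 2.76e-15). Its partner Mphosph8, which reads the repressive mark, fell from 37.0 and 31.2 to 6.53 and 7.60 CPM (-2.28, adjusted p = 8.09e-15). The KRAB zinc finger gene Zfp809 fell as well (-1.37). Setdb1, the methyltransferase that Trim28 recruits, had 87.0 and 84.9 CPM in shCtrl and 86.3 and 80.4 in shUSP9X and did not pass (-0.04, adjusted p = 0.507). Trim28 was thus higher in libraries in which several of its partners were lower.

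Members of several classes outside SPRY were lower, although with an offset for GC content and length Trim59 and Trim56 were higher and Trim37 had no call. Trim23 (ENSMUSG00000021712, chromosome 13, 104178797 to 104203372), which carries a GTPase domain of the ARF type, had 21.5 and 20.9 CPM in shCtrl and 10.3 and 8.84 in shUSP9X. The groups did not overlap (log2 fold change -1.14, SE 0.12, edgeR adjusted p = 6.5e-09), and the fall was reduced to -0.30 with the offset. Trim2 (ENSMUSG00000027993, chromosome 3, 84160439 to 84306877), an NHL-domain ligase known for protecting neurons, went from 68.0 and 72.2 to 36.0 and 33.2 CPM, and neither group came near the other (log2 fold change -1.02, SE 0.07, edgeR adjusted p = 1.11e-12). Trim3 and Trim32 were the other NHL genes tested. Trim3 had a log2 fold change of -0.17 whose call was lost without shCtrl replicate 1, shCtrl replicate 2 or shUSP9X replicate 2 (adjusted p of 0.0538, 0.135 and 0.428), and was -0.09 without the last. Trim32, a ligase mutated in a limb-girdle muscular dystrophy, did not pass, at 0.08.

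Trim44 (ENSMUSG00000027189, chromosome 2, 102300119 to 102407828), which lacks a RING finger and carries a zinc finger of the kind found in deubiquitinases, had 255 and 237 CPM in shCtrl and 150 and 141 in shUSP9X. Its fall was the one with the smallest adjusted p in the family (log2 fold change -0.76, SE 0.05, edgeR adjusted p = 9.09e-14). Trim59 (ENSMUSG00000034317), a transmembrane member, went from 180 and 169 to 115 and 127 CPM (-0.53, SE 0.05, edgeR adjusted p = 9.13e-10). In both genes the groups lay apart. Trim37, the MATH-domain member of centrosomes and peroxisomes, fell from 78.3 and 84.0 to 65.8 and 66.6 CPM (-0.29, edgeR adjusted p = 8.8e-05), and Trim8 fell slightly (-0.17, edgeR adjusted p = 0.00434), a call lost without shUSP9X replicate 1 (0.0717).

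**Figure D3:**
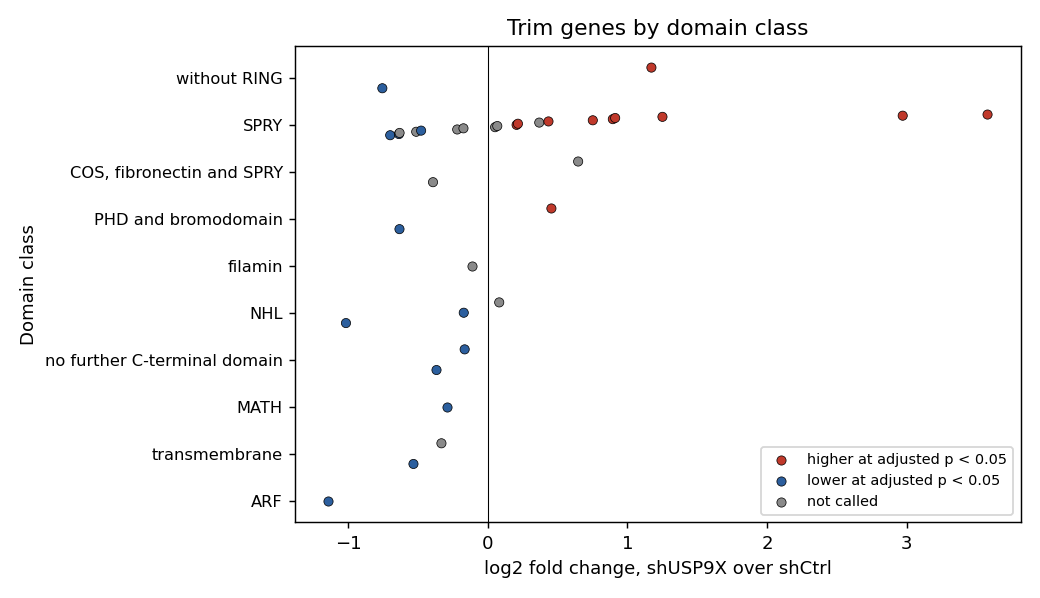
Log2 fold change of shUSP9X over shCtrl (horizontal axis) for each tested Trim gene, grouped by the domain class of its protein (vertical axis), 1 point per gene. Of the SPRY class 9 of 19 tested genes were called higher and 3 lower, beside 33.8% and 33.6% of all genes. Trim30d, 1 of the 9, passed the filter on low counts only through shUSP9X. The NHL, MATH, ARF and transmembrane classes hold only 3, 1, 1 and 2 tested genes.

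Fold changes in these libraries followed GC content, the share of G and C bases in a gene's longest transcript. Over 11430 genes Spearman's rho between GC content and log2 fold change was 0.43, and over the 35 tested Trim genes it was 0.15. Between transcript length and log2 fold change it was -0.32 over the same 35 genes. All are given as descriptions of genes that share the same 4 libraries. The offset used here covers GC content and length together, and their separate shares were not tested. The Trim genes ranged from 37.4 to 64.1% GC with a median of 50.3%, against 49.6% for all genes tested. In a fit with an offset for GC content and length, 13 members were higher and 8 were lower (36.0% and 27.8% of all genes), and 10 and 7 members were higher or lower in both fits. The rises of Trim30a (4.07), Trim34a (1.38), Trim14 (0.99), Trim65 (0.77), Trim21 (0.77) and Trim47 (0.71) were kept, as was that of Trim28 (0.29). Among the falls, Trim24 was at -0.65, Trim44 at -0.52, Trim2 at -0.51 and Trim23, the member with the lowest GC content, at -0.30 (edgeR adjusted p = 0.0335). All 4 kept their call, but the members lower at the study's criteria went from 6 to 1. The share of all genes at those criteria in the offset fit is not given here, so this drop has no background beside it.

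Some calls depended on that offset. Trim59 turned to a rise (0.14, adjusted p = 0.012), as did Trim56, and Trim37 was at 0.01 with no call (adjusted p = 0.914). Trim6, Trim12c and Trim35 lost their calls, at log2 fold changes of -0.49, -0.17 and 0.06 (edgeR adjusted p of 0.0554, 0.552 and 0.233). Trim12a gained one as higher (0.99, adjusted p = 0.00283) and Trim41 one as lower (-0.34, adjusted p = 0.00224). Over all 14 alternatives the adjusted p ranged from 0.00149 to 0.173 for Trim6, from 0.0128 to 0.552 for Trim12c, from 0.00283 to 0.608 for Trim12a, from 6.89e-04 to 0.0853 for Trim26 and from 4.41e-05 to 0.237 for Trim35. It ranged from 3.53e-06 to 0.599 for Trim56, from 1.56e-05 to 0.914 for Trim37, from 0.00224 to 0.885 for Trim41, from 0.0142 to 0.283 for Trim7, from 1.19e-04 to 0.428 for Trim3 and from 3.14e-06 to 0.0717 for Trim8. Trim23 and Trim59 stayed under 0.05 throughout, though Trim59 changed direction. In the fit with the offset Tasor stood at -1.59, Mphosph8 at -2.01 and Usp9x at -2.44. Whether GC content moved with the knockdown or with library preparation cannot be told apart in these 4 libraries.

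**Figure D4:**
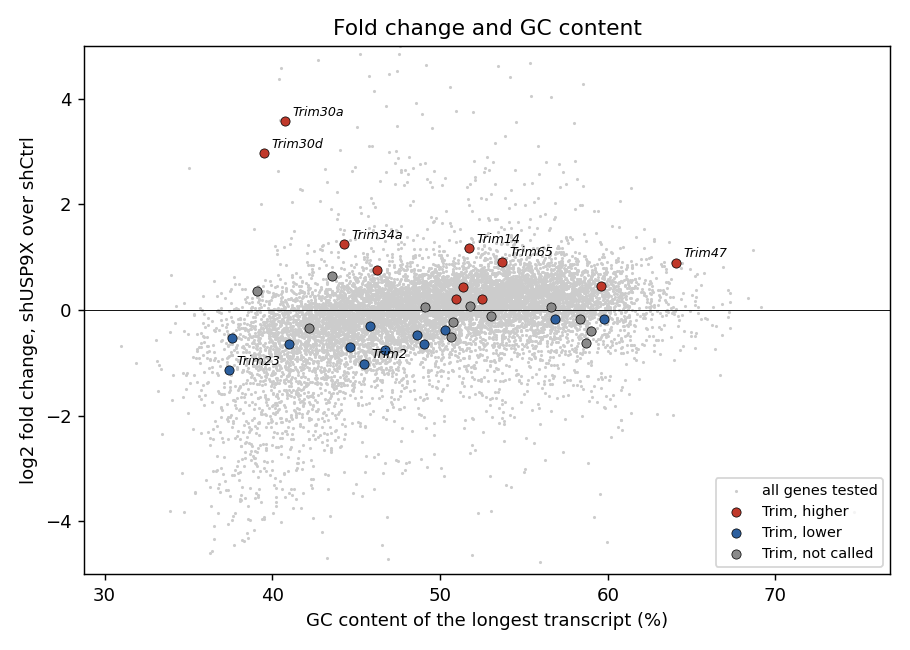
Log2 fold change (vertical axis, limited to 5 in either direction, with 53 genes beyond it) against GC content of the longest transcript in percent (horizontal axis) for all genes tested, with the Trim genes marked. Fold changes rise with GC content over all genes, and Trim30a and Trim30d lie at the top of the Trim genes at 40.8 and 39.5% GC.

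Levels were compared between members in FPKM, which is scaled for transcript length. Of the 66 members, 13 had a mean of at least 10 FPKM over the 4 libraries, 16 had 1 to 10, 20 were above 0 and under 1, and 17 had no count in any library. Trim28 was the highest at 104 ± 3.47 FPKM in shCtrl and 140 ± 1.04 in shUSP9X (mean ± SD, n = 2 libraries each), which was 19.2% and 24.7% of the family's summed FPKM. Trim59 followed in shCtrl (64.9 ± 1.68), ahead of Trim44 (45.2 ± 2.03) and Trim27 (43.6 ± 0.575), and the latter pair lay within their spread of each other. In shUSP9X the order below Trim28 was Trim27 (59.1 ± 1.27), Trim47 (45.0 ± 0.029) and Trim59 (43.0 ± 2.46). The summed FPKM of the family was 534.6 and 549.6 in shCtrl and 566.4 and 567 in shUSP9X. Trim30a, for all its rise, reached 2.28 ± 0.148 FPKM in shUSP9X from 0.193 ± 0.0318 in shCtrl.

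**Figure D5:**
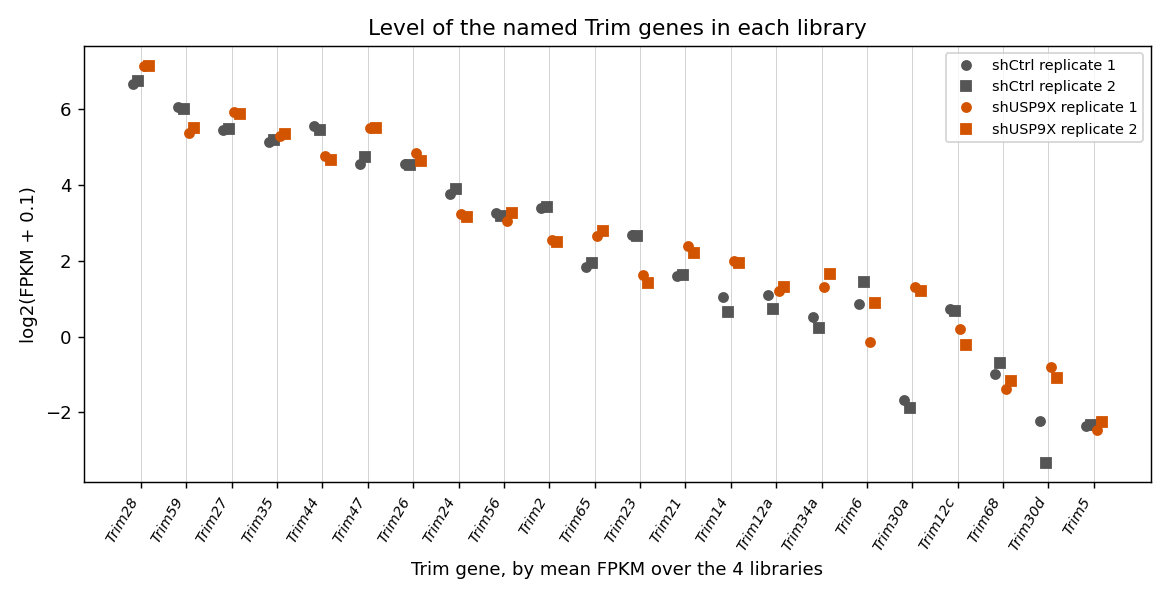
Level of the named Trim genes as log2(FPKM + 0.1) (vertical axis) in each library, 1 point per library coloured by group, ordered by mean FPKM (horizontal axis). Trim28 is highest in every library, and the distance between the groups is widest for Trim30a.

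Most of the remaining members were silent or close to it. The 17 genes with no count in any library included the muscle RING finger genes Trim54, Trim55 and Trim63, the neuronal gene Trim9 and its relative Trim67, and Trim10, Trim31, Trim38, Trim42, Trim50, Trim52, Trim58, Trim60, Trim61 and Trim80, beside Trim30c and Trim34b. A further 10 were at or under 3 counts in every library, namely Trim29, Trim30b, Trim43a, Trim43b, Trim43c, Trim66, Trim69, Trim71, Trim72 and Trim75, among them the developmental regulator Trim71 and the muscle membrane repair gene Trim72. Trim5, Trim15, Trim17 and Trim40 passed 3 counts in some library but were not tested. Of the members tested without a call, Trim36, Trim46, Trim62, Trim45 and Trim68 had mean levels under 1 FPKM, and Trim68 had a log2 difference of -0.51 (edgeR adjusted p = 0.339). Trim11, Trim13, Trim16 and Trim39 also had no call but were expressed, at means of 7.97, 2.72, 19.5 and 4.45 FPKM. Their log2 differences were 0.05, -0.33, 0.07 and -0.22.

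TRIM proteins that carry other symbols moved both ways. Pml, the organizer of the nuclear bodies that bear its name and a known interferon target, rose from 70.3 and 77.8 to 134 and 143 CPM (log2 fold change 0.91, edgeR adjusted p = 9.26e-14). Mid2, a microtubule-bound ligase, fell from 38.8 and 38.0 to 14.8 and 15.0 CPM (-1.37, adjusted p = 1.51e-12, or -0.69 once GC content and length were offset), and its paralog Mid1 rose slightly (0.14, adjusted p = 0.0154) without a rise after that offset (-0.01). Mefv had at most 1 count in a library.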

How the data were processed

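RNA of 4 ID8 libraries (2 shCtrl, 2 shUSP9X) was enriched for poly(A), prepared with a kit that does not mark strand and sequenced on an Illumina NovaSeq. Reads were mapped to GRCm38, and the submitters' processing notes name fastp 0.18.0, Bowtie2 2.2.8, HISAT2, StringTie 1.3.1 and RSEM, with no role or order given. For each gene, the deposited table gives estimated counts without normalization, of which 6.40 to 6.69% per library were not whole. The authors also deposited FPKM values, scaled for length and library size.

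Counts were rounded, filtered with filterByExpr, scaled by TMM and fitted in edgeR 4.0.16 under R 4.3.3 (quasi-likelihood F-test, 2 residual degrees of freedom, no replicate block) over all 11448 genes passing, with Benjamini-Hochberg adjustment over all of them. The common biological coefficient of variation was 0.0352. Printed CPM are TMM-scaled. Fold changes are on the log2 scale. GC content, length, coordinates and shared 50-base stretches came from GENCODE M21 (GRCm38). Alternatives were DESeq2 1.42.0, limma 3.58.1 on log2(FPKM + 1) and log2(FPKM + 0.1), other scalings and filters, a replicate block, a GC content and length offset (loess, span 0.3) and leaving out each library. Floors cover counting error only, since molecular identifiers are not described.

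Genes named are Usp9x, members with an adjusted p under 0.05, a fold change over 1.5 and at least 10 counts in both libraries of a group (up to 10 in each direction), the 6 highest by mean FPKM, the interferon-inducible and tandem members above 3 counts in some library, and the largest rise and fall of each list. Others were chosen after their values were seen. The values of 1 marker gene are not reported here. The members and lists were chosen with earlier results of these data known.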

Additional observations from a re-analysis of the deposited data

How the results depend on the processing

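Across 14 alternatives, the 11 higher members stayed within 1.5 times, from 10 to 12 without 1 library. The 12 lower members became 7 with DESeq2 and 7 with limma on log2(FPKM + 1) or log2(FPKM + 0.1), and 9 to 10 without 1 library. The median log2 fold change of -0.17 became -0.0268 (DESeq2), -0.0166 (FPKM + 1), -0.0182 (FPKM + 0.1), -0.0771 (GC content and length offset) and -0.0764 (that offset with the replicate block), and ranged from -0.19 to -0.0774 without 1 library. The 6 members lower at the study's criteria became 3 with limma on log2(FPKM + 1), 1 with the offset and 1 with offset and block. These counts are of members only, without the shares of all genes in the same fits. Trim56 reversed to 0.2959 and 0.2958, and Trim59 to 0.1403 and 0.1397, with the offset alone and with the block. The offset's own construction removes the trend with GC content and length, and the cause of the other changes was not tested. DESeq2 tested 38 members and limma 29, and Trim30d and Trim68 had no value with limma, nor Trim30d with at least 10 counts in every library. Of 22 named genes with a test, 15 kept direction and call in each alternative that gave a value, the exceptions being Trim6, Trim12a, Trim12c, Trim26, Trim35, Trim56 and Trim59. Without 1 library, 17 of the 23 calls were kept in every fit.

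The replicate numbers pair nothing in the labels. Deviations from the group mean were correlated between shCtrl replicate 1 and shUSP9X replicate 1 over the 11448 genes tested (r = -0.0453). With 2 libraries a group, replicate 2 mirrors replicate 1 and adds no further comparison. With the replicate block, 11 members were higher and 12 lower, with a median of -0.17. With 2 libraries a group, the members of few counts have wide standard errors.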
